A study of Homo sapiens with 6 samples.

Results

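The heat shock protein and DNAJ genes, which encode the main families of human molecular chaperones, were followed in HEK293T cells that express a bacterial polyphosphate kinase. Members were taken by gene symbol: the HSPA, HSPB, HSPH1, HSPD1, HSPE1, HSP90 and numbered DNAJA, DNAJB and DNAJC genes, the heat shock factors HSF1, HSF2 and HSF4, and the co-chaperones STIP1, BAG3, AHSA1 and FKBP4. Symbols with a hyphen or with a pseudogene ending (P, or P plus digits) were left out, except STIP1 and FKBP4, which end that way but were named. This gave 81 of the 58051 genes in the table, and all 81 were grouped by where the protein works: 48 in the cytosol or nucleus, 13 in the endoplasmic reticulum, 10 in mitochondria and 10 elsewhere or of unsure location. HSPA7 and DNAJB3 meet the rule but are annotated as pseudogenes.

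RNA was sequenced from HEK293T, an embryonic kidney line that contains the SV40 T-antigen, 48 hours after transient transfection by lipofection. The control group (3 libraries) received the empty vector pcDNA3.1-, and the ppk1 group (3 libraries) received pcDNA3.1-ppk1+, from which the cells make the polyphosphate kinase PPK1 under the strong viral promoter of this vector. Libraries B, C and D of the control group were each matched to the ppk1 library of the same letter. Both groups are therefore transfected cells of 1 line, and the comparison asks which chaperone transcripts differ when the plasmid carries the kinase. A transiently transfected culture is a mixture of cells with and without the plasmid, and the labels give neither the share of transfected cells nor which of a range of plasmid amounts each library received. The table lists human genes, so the ppk1 transcript was not analysed here.

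Chaperones bind unfolded protein and help it fold or stay soluble. Hsp70 proteins (HSPA) do so in cycles of ATP hydrolysis that J proteins (DNAJ) start and Hsp110 proteins (HSPH1, HSPA4, HSPA4L) reset by exchanging the nucleotide, and Hsp90 acts later on signalling proteins handed over by co-chaperones such as STIP1. Each compartment has its own set under its own control. Cytosolic chaperone genes respond to HSF1, which binds heat shock elements in their promoters, those of the endoplasmic reticulum to the unfolded protein response, and the mitochondrial chaperonin HSPD1 with its lid HSPE1 folds imported proteins.

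The libraries held between 40851783 and 67122986 counts, and the ppk1 library was the deeper one of each pair; after the libraries were thinned to equal depth the same 11 members were called. All 6 genes listed as expressed in HEK293T were found, from the intermediate filament gene VIM at 456 to 557 CPM (counts scaled to a common library size) down to PAX2 at 2.63 to 3.77 CPM. On plain library totals the groups of 3 of them did not overlap. VIM was at 500 to 557 CPM in the empty vector libraries and 456 to 495 CPM with ppk1. NEFL was at 71.4 to 89.3 against 58.2 to 65.8 CPM, and KRT18 at 42.2 to 47.7 against 51.1 to 53.9 CPM. Among markers of other cell types, PTPRC, PECAM1, CDH5, DES and ALB stayed at or below 0.832 CPM in each library, while the collagen gene COL1A1 was at 15.4 to 21.4 CPM over both groups. Groups of low values were separate for ALB (0.513 to 0.832 against 0.211 to 0.259 CPM) and DES (0.177 to 0.245 against 0.298 to 0.338 CPM). Of all 19574 tested genes, 2547 had separate groups with ppk1 above and 2474 with ppk1 below, on the TMM-scaled totals used for the members. The marker groups were not compared on that scale, where those of VIM, separate by a narrow margin, may overlap. The part of these marker shifts in the results on chaperones was not tested. Of the 81 members, 72 had enough counts to be tested. The other 9 (DNAJA4, DNAJB3, DNAJB7, DNAJB8, DNAJC5B, HSPA7, HSPB2, HSPB3 and HSPB7) had at most 7 counts in a library, and DNAJB3 had 0 in all 6, which allows up to 3 counts, or 0.0447 to 0.0734 CPM depending on the library.

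Transcripts of 9 cytosolic chaperones and co-chaperones rose with ppk1, by 1.17 to 1.34-fold: HSPA1B, HSPA8, HSPH1, HSP90AA1, DNAJA1, DNAJB1, STIP1, AHSA1 and FKBP4. Those of HSF2 and DNAJB2 fell, by 0.32 and 0.29 on the log2 scale. Of the endoplasmic reticulum members 0 of 13 and of the mitochondrial members 0 of 10 passed the test. Of all tested genes, 4.04% passed as higher and 5.04% as lower, so 0 among so few members lies near those shares. In bulk RNA a change in all cells and a larger one in the transfected cells alone cannot be told apart, nor can fewer cells of a kind and less RNA per cell. The 9 genes lie on chromosomes 6 (HSPA1B), 9 (DNAJA1), 11 (HSPA8 and STIP1), 12 (FKBP4), 13 (HSPH1), 14 (HSP90AA1 and AHSA1) and 19 (DNAJB1). A gene is called here when its Benjamini-Hochberg adjusted p over all 19574 tested genes is below 0.05 in edgeR's quasi-likelihood test, with the replicate letter as a block. The 9 rises make up 12.5% of the 72 tested members, against 4.04% of all tested genes called higher, and the 2 falls 2.78%, against 5.04% called lower. All ppk1 libraries lay above all empty vector libraries for 15 members (20.8%), which was the case for 13.0% of all tested genes. At an unadjusted p below 0.05 in the same edgeR test, 18 of the 72 members were higher and 6 lower. Over all 19574 tested genes, 2381 were higher and 2269 lower at that threshold. Unadjusted counts over all genes were taken for this fit only. All calls depended on replicate C. Without it, 0 members were called by edgeR (9 higher and 3 lower at an unadjusted p below 0.05), where 0.415% of all genes were called higher. Without the block 1 member, HSPA1B, was called (14 higher and 5 lower at an unadjusted p below 0.05), where 0.455% of all genes were called higher.

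**Figure D1:**
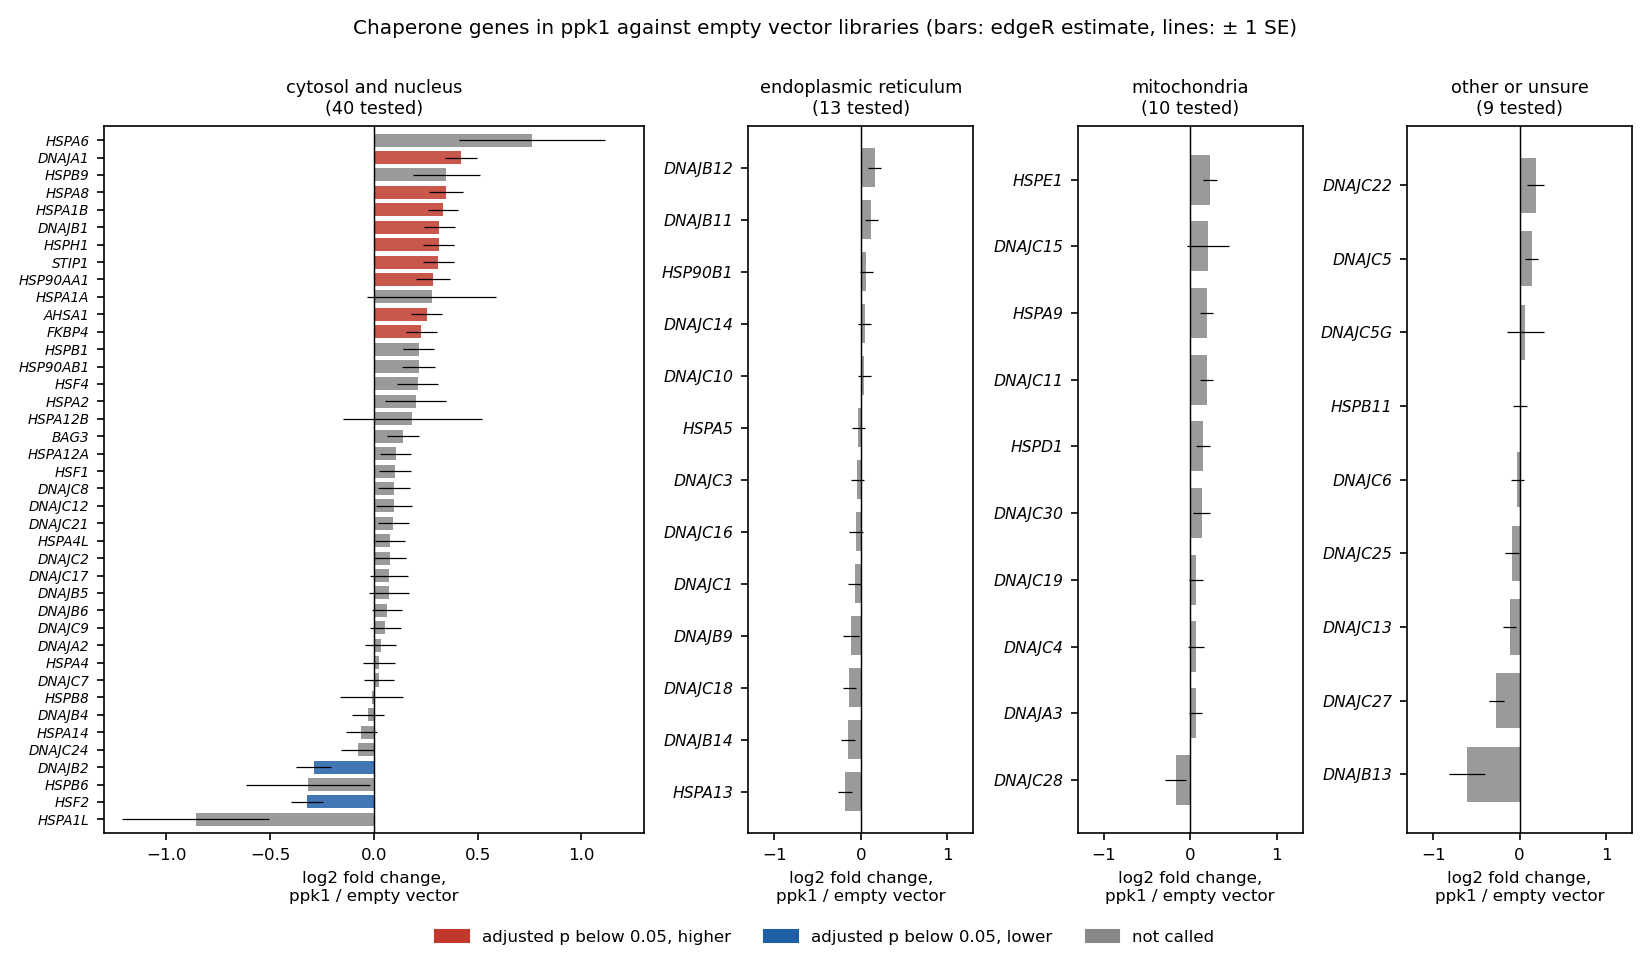
Log2 fold change of ppk1 over empty vector libraries for the 72 tested members, by compartment; bars are edgeR estimates from 3 libraries per group, lines are 1 SE on each side, red and blue bars have an adjusted p below 0.05. All coloured bars are in the panel for cytosol and nucleus, where 9 are red and 2 are blue, and wide error lines mark genes with few counts such as HSPA6 and HSPA1L.

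Among the cytosolic Hsp70, Hsp110 and Hsp90 genes, 4 of 14 tested rose (28.6%) and none was called lower. Of all tested genes, 4.04% were called higher and 5.04% lower. At an unadjusted p below 0.05 in edgeR, 6 of the 14 were higher and 1, HSPA1L, lower. At that threshold 2381 of all 19574 tested genes were higher and 2269 lower. HSPA1B, the stress-inducible Hsp70, had 193, 188 and 186 CPM in empty vector libraries B, C and D and 232, 245 and 238 CPM in the ppk1 libraries. The groups did not overlap, and the spread within each was small: 189 ± 3.65 against 238 ± 6.47 CPM (mean ± SD, n = 3 libraries per group). The log2 fold change was 0.33 (SE 0.07), with an edgeR adjusted p of 0.00155 and, without the block, 0.0212. Its sequence is 73.5% shared with other genes in stretches of 50 bases, chiefly with the near-identical HSPA1A. HSPA1A was listed with only 8 to 31 counts per library (log2 fold change 0.28, SE 0.31, edgeR adjusted p 0.63), so the division of reads between the pair is uncertain and the HSPA1B value may stand for both.

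HSPA8, the constitutive cytosolic Hsp70 (Hsc70), had 670, 797 and 963 CPM in empty vector libraries B, C and D and 895, 1167 and 1018 CPM with ppk1. The groups overlapped, because empty vector library D was above ppk1 library B, yet the value rose within each pair. The edgeR log2 fold change of HSPA8 reached 0.35 (SE 0.08, adjusted p 0.00306), with ratios of 0.42 and 0.55 for B and C but 0.08 for D. HSP90AA1, the inducible Hsp90, also overlapped, with 1882, 2083 and 2590 CPM in the empty vector libraries and 2483, 2728 and 2710 CPM with ppk1. The ratio was again high for B (0.40) and C (0.39) and low for D (0.07) (log2 fold change 0.285, SE 0.083, edgeR adjusted p 0.0206), and it was not called without replicate B (adjusted p 0.22). In both genes empty vector library D was the highest of its group.

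HSPH1, the Hsp110 nucleotide exchange factor induced by heat, had 196, 225 and 223 CPM in the empty vector libraries and 243, 302 and 258 CPM with ppk1. The groups did not overlap, and the log2 fold change was 0.31 (SE 0.07, edgeR adjusted p 0.00345). Its relatives HSPA4 and HSPA4L had values of 0.024 and 0.077 and were not called. HSP90AB1, the constitutive Hsp90, had 1689, 1677 and 1763 CPM against 1885, 2196 and 1893 CPM. All its ppk1 libraries were above its empty vector libraries, but its log2 fold change of 0.22 (SE 0.08) missed the threshold at an edgeR adjusted p of 0.0839. HSP90AB1 was called higher with no low-count filter (edgeR adjusted p 0.0149), with GC and length offsets (0.0165) and without replicate D (0.0389). HSP90AA1 and HSP90AB1 share 11.3% and 16.6% of their sequence with other genes in stretches of 50 bases. HSPA6, the Hsp70 that is expressed almost only under strong stress, had 7 to 14 counts per empty vector library and 14 to 27 with ppk1. Its groups did not overlap in CPM (0.158 to 0.269 against 0.335 to 0.438), and its log2 fold change of 0.76 (SE 0.35) had an unadjusted p of 0.0343 and an edgeR adjusted p of 0.17, so it was not called.

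**Figure D2:**
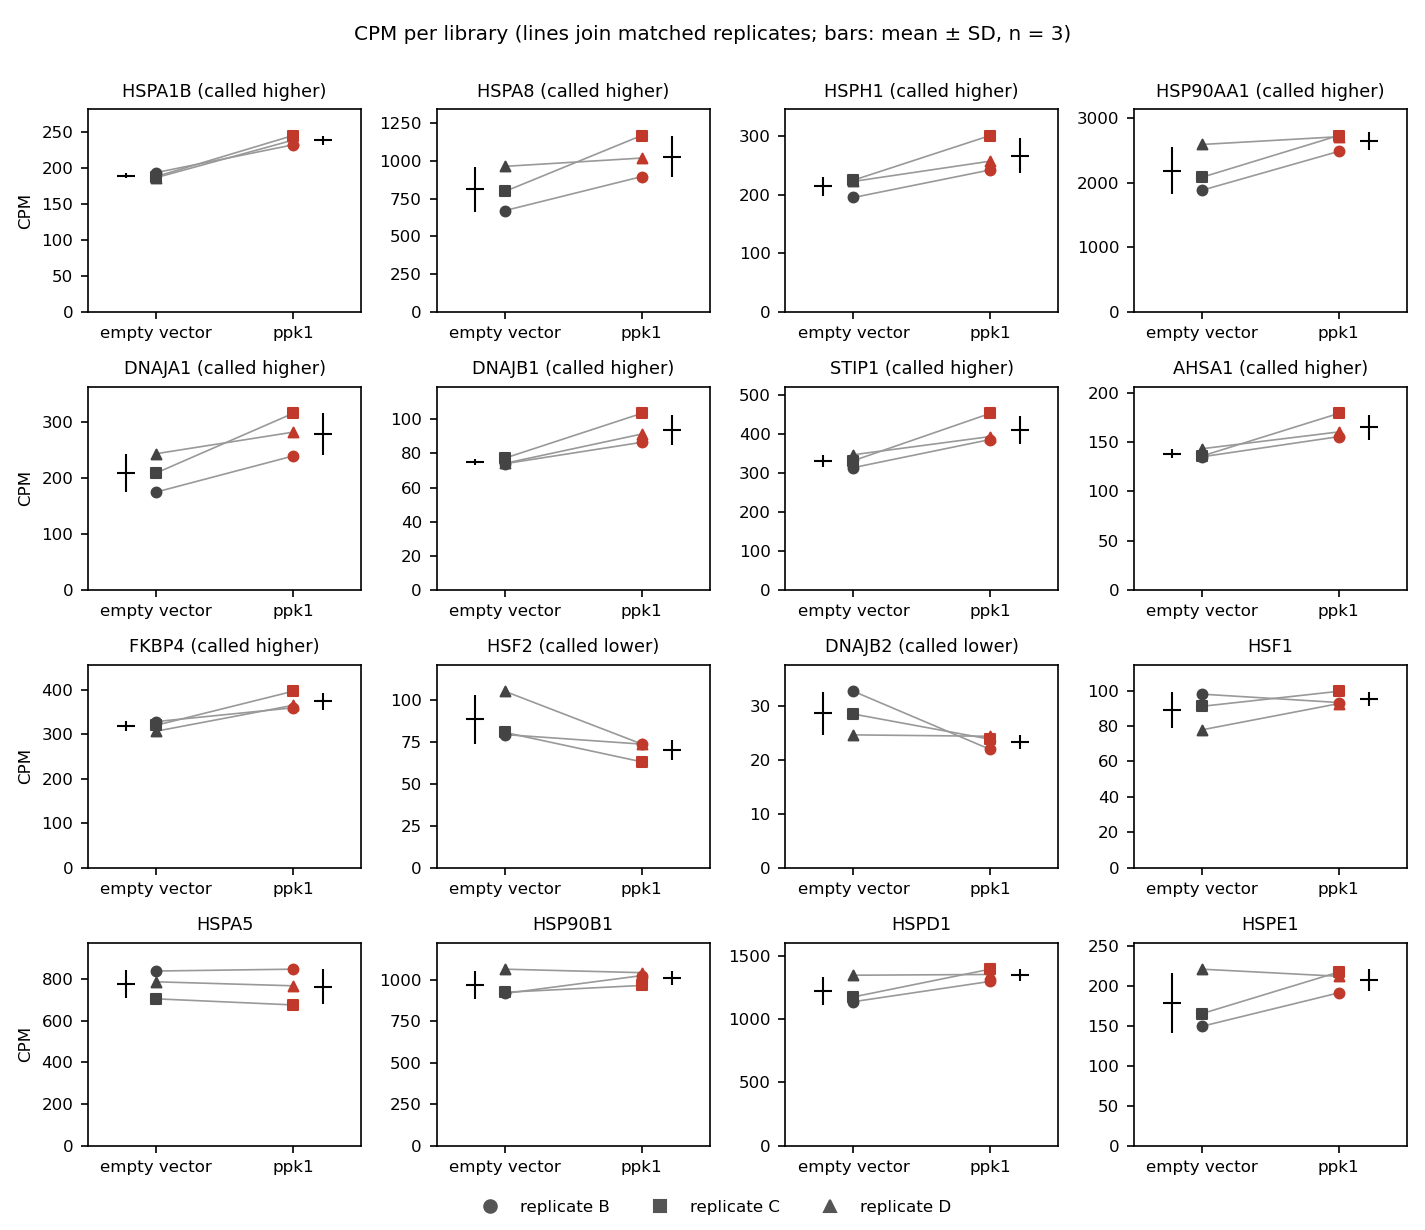
CPM in each of the 6 libraries for 16 members, with grey lines joining the matched empty vector and ppk1 libraries and black bars for mean ± SD (n = 3); each vertical axis starts at 0. HSPA1B and DNAJB1 have tight, separate groups, while for HSPA8, HSP90AA1 and HSPE1 the empty vector library D (triangle) is as high as some ppk1 libraries.

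J proteins deliver substrates to Hsp70 and trigger its ATPase. Of the 15 tested in the cytosol and nucleus, 2 rose (13.3%, against 4.04% of all tested genes) and 1 fell (6.67%, against 5.04%). DNAJA1, a general Hsp70 partner of the cytosol, had 175, 209 and 243 CPM in empty vector libraries B, C and D and 239, 315 and 282 CPM with ppk1. It rose in each pair although the groups overlapped, with the smallest adjusted p of all members (log2 fold change 0.42, SE 0.08, edgeR adjusted p 0.000124). DNAJB1, the heat-inducible J protein, had 74.0, 77.2 and 74.2 CPM in the empty vector libraries and 86.5, 103.5 and 91.4 CPM with ppk1. Its groups did not overlap (log2 fold change 0.32, SE 0.075, edgeR adjusted p 0.00365). DNAJB2, a J protein enriched in neurons, had 32.8, 28.6 and 24.7 CPM against 21.98, 23.9 and 24.4 CPM. Its groups were separate by a narrow margin, with a change of -0.57 in pair B, -0.26 in pair C and -0.02 in pair D (log2 fold change -0.29, SE 0.085, edgeR adjusted p 0.0212). It was not called by DESeq2 (adjusted p 0.132) or without replicate B (-0.14, adjusted p 0.367). The other 12, among them DNAJA2, DNAJB6, DNAJC7 and the ribosome-bound DNAJC2, lay between -0.08 and 0.10 on the log2 scale and were not called.

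All 4 co-chaperones had higher CPM with ppk1 in each pair and CPM groups that did not overlap, and 3 were called. Of all tested genes, 13.0% had groups separate in that direction and 4.04% were called higher. STIP1 (HOP), which bridges Hsp70 and Hsp90, had 313, 331 and 346 CPM in the empty vector libraries and 385, 452 and 393 CPM with ppk1 (log2 fold change 0.31, SE 0.075, edgeR adjusted p 0.00455). AHSA1, which stimulates the Hsp90 ATPase, had 135, 136 and 143 CPM against 156, 179 and 161 CPM. Its log2 fold change was 0.255 (SE 0.074, edgeR adjusted p 0.0201). FKBP4, a prolyl isomerase bound to Hsp90, had 329, 321 and 307 CPM against 360, 397 and 365 CPM (log2 fold change 0.23, SE 0.07, edgeR adjusted p 0.0399). It lost the call under upper-quartile scaling (adjusted p 0.0597) and without replicate D (0.0743). BAG3, which links Hsp70 to selective autophagy and is an HSF1 target, had 34.4, 33.6 and 31.9 CPM against 34.9, 38.7 and 36.8 CPM. Its change of 0.14 (SE 0.08) was not called (edgeR adjusted p 0.261). As TPM (counts divided by exon length and scaled to a common total), the groups of BAG3 and FKBP4 overlapped. In that measure BAG3 had 50.21, 48.49 and 43.61 in empty vector libraries B, C and D against 46.99, 48.35 and 48.23 with ppk1.

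Of the 7 cytosolic small heat shock proteins, ATP-independent holders of unfolded protein, 4 were tested and none was called (2, HSPB1 and HSPB9, were higher and 0 lower at an unadjusted p below 0.05). Of all 19574 tested genes, 2381 were higher and 2269 lower at that threshold. HSPB1 (Hsp27) had 58.0, 53.3 and 52.9 CPM against 65.8, 62.3 and 62.8 CPM, with no overlap. As TPM its groups overlapped, at 142.2, 129.1 and 121.6 against 148.9, 131 and 138.3. Its log2 fold change of 0.22 (SE 0.075) had an edgeR adjusted p of 0.0568, just above the threshold, and the 3 pairs were close together (0.18, 0.23 and 0.25).

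Of the 3 heat shock factors, HSF2 fell and the others were not called, where 4.04% of all tested genes were called higher and 5.04% lower. HSF2, a factor that can form trimers with HSF1, had 79.2, 80.5 and 105.0 CPM in empty vector libraries B, C and D and 73.6, 63.0 and 73.7 CPM with ppk1. All ppk1 libraries were below all empty vector libraries, by the least in pair B (-0.11) and the most in pair D (-0.51), and the log2 fold change was -0.32 (SE 0.08, edgeR adjusted p 0.00433). HSF1, the main activator of the heat shock response, which is controlled chiefly at the protein level, had 98.0, 91.1 and 77.8 CPM against 93.3, 99.6 and 92.6 CPM. The groups overlapped, and its change of 0.10 (SE 0.08) was not called (edgeR adjusted p 0.447). HSF4, best known from the lens, had 15.8, 13.1 and 9.66 CPM against 15.2, 14.0 and 15.0 CPM. Its change of 0.21 (SE 0.10, edgeR adjusted p 0.177) came from pair D (0.63), where the empty vector library was the lowest of the 6, and was -0.002 without that pair, while without replicate B it was called higher (0.355, adjusted p 0.0211).

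**Figure D3:**
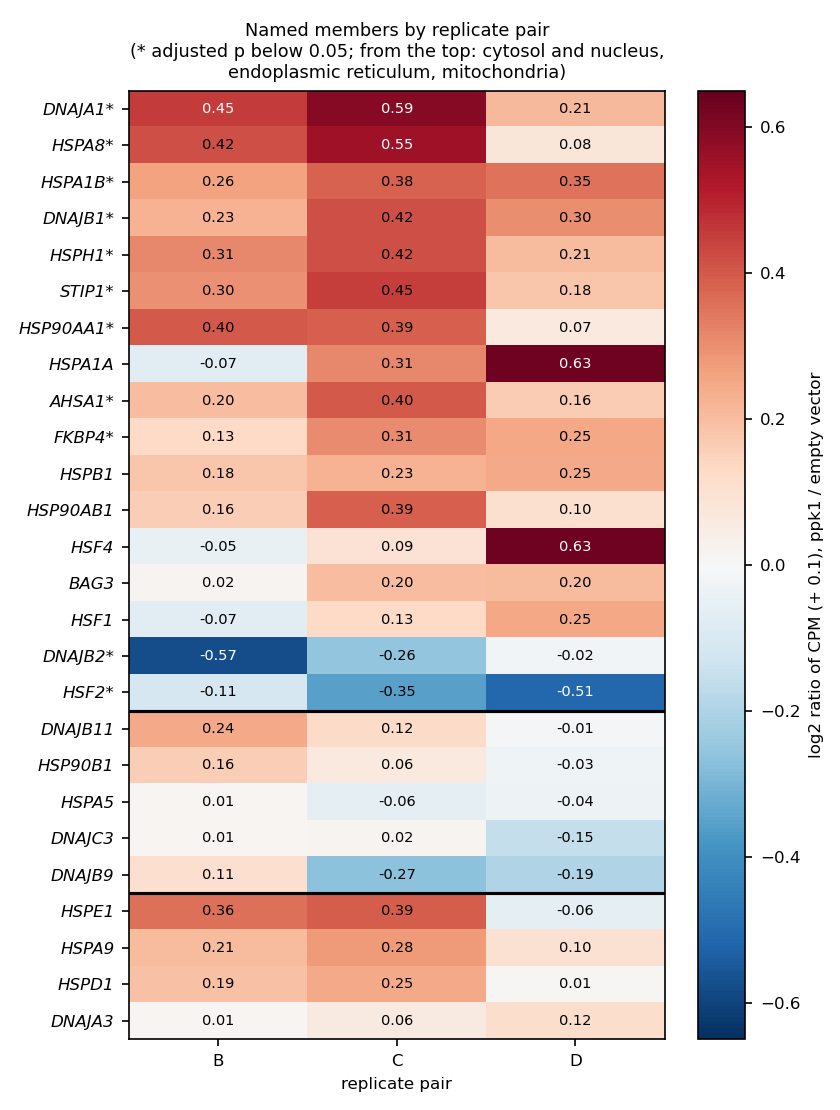
Log2 ratio of ppk1 over empty vector CPM (plus 0.1) within each replicate pair for 26 named members, with the values printed in the cells, red for higher and blue for lower with ppk1; horizontal lines separate cytosol and nucleus, endoplasmic reticulum and mitochondria, and an asterisk marks an adjusted p below 0.05. The 9 members called higher are red in each pair, with the palest cells for HSPA8 (0.08) and HSP90AA1 (0.07) in pair D.

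The promoters of the members were read for the sequences that HSF1 and the unfolded protein response use. The windows ran from 250 bases before to 50 bases after each RefSeq transcription start (GRCh38.p14) and were given for 69 of the 81 members. A heat shock element was searched on both strands in a strict form of 3 alternating units, GAANNTTCNNGAA or TTCNNGAANNTTC, and in a loose form of 2 units, GAANNTTC or TTCNNGAA, which the strict form contains. The strict form was found in 7 members (10.1%) and in 0.61% of all 27305 RefSeq genes with a window. It was found in 3 of the 8 called-higher members with a window (37.5%), in 3 of 25 cytosolic members that were not called (12.0%), in 1 of 10 mitochondrial members and in 0 of 12 endoplasmic reticulum members. The loose form was found in 6 of the 8 called-higher members (75.0%), in 10 of the 25 (40%), in 3 of 10 in mitochondria (30%), in 0 of 12 in the endoplasmic reticulum, in 3 of the 5 members with a window that had too few counts to be tested (60%), and in 16.2% of all genes. FKBP4 was one of the 12 members without a window. Neither form was found in the windows of HSF2, DNAJB2, HSPH1 or AHSA1. A match describes letters only, and a window without one says nothing about sites elsewhere.

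The strict elements are shown with 5 bases on each side, 5′ to 3′ on the strand of the gene and with the element in capitals, because both called and uncalled members hold them. Positions are counted from the transcription start, which is 1. Elements of called-higher members lie at -230 and -55 (HSPA8), -88 (HSP90AA1) and 4 (DNAJA1).
HSPA8, chr11:123062349-123062371, minus strand: agcttGAAAGTTCCAGAAcgctg
HSPA8, chr11:123062174-123062196, minus strand: gccccTTCTGGAAGGTTCtaaga
HSP90AA1, chr14:102087115-102087137, minus strand: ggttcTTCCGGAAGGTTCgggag
DNAJA1, chr9:33025271-33025293, plus strand: gggcgGAACTTTCCAGAAcgctc

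Elements of members that were not called lie at -165 and -112 from one of the annotated starts of HSP90AB1, at -131 in DNAJB6, at -74 in HSPA6 and at -245 in HSPD1. In HSPD1, matches overlap and are shown joined.
HSP90AB1, chr6:44247773-44247795, plus strand: gcaggTTCTGGAAGATTCatggg
HSP90AB1, chr6:44247826-44247848, plus strand: gattgTTCTGGAAGCTTCtggat
DNAJB6, chr7:157336868-157336890, plus strand: gccgaGAACCTTCGCGAAggtgg
HSPA6, chr1:161524461-161524483, plus strand: aaaggTTCGCGAAAGTTCgcggc
HSPD1, chr2:197500063-197500090, minus strand: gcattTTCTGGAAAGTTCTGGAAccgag

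DNAJB1, HSPA1B and STIP1, also called higher, hold the loose form only, which is shown at -77 and -47 from one start of DNAJB1, at -105 in HSPA1B and at 14 in STIP1.
DNAJB1, chr19:14518462-14518479, minus strand: gggcgGAAGGTTCtggag
DNAJB1, chr19:14518432-14518449, minus strand: ctctgGAAGCTTCcgccg
HSPA1B, chr6:31827628-31827645, plus strand: ccctgGAATATTCccgac
STIP1, chr11:64186179-64186196, plus strand: gtaggTTCCAGAAggcgg

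The endoplasmic reticulum stress element, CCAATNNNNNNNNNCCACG, is the site through which ATF6 raises HSPA5. It was found, on either strand, in 2 of the 12 endoplasmic reticulum members with a window (16.7%), in 0 of the 40 cytosolic members with one and in 0.09% of all genes. Both members that hold it, HSPA5 and HSP90B1, were not called.
HSPA5, chr9:125241386-125241414, minus strand: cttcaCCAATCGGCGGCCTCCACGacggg
HSP90B1, chr12:103930211-103930239, plus strand: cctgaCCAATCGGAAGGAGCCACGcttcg
HSP90B1, chr12:103930316-103930344, plus strand: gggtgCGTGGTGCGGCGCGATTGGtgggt

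In the endoplasmic reticulum, 0 of 13 members were called by edgeR, where 4.04% of all tested genes were called higher and 5.04% lower. At an unadjusted p below 0.05, DNAJB12 was higher (0.165) and HSPA13 lower (-0.18), as were 2381 and 2269 of all 19574 tested genes. DESeq2 called none of the 13. HSPA5 (BiP), the Hsp70 of the lumen and the usual gauge of the unfolded protein response, had 840, 706 and 788 CPM in empty vector libraries B, C and D and 848, 677 and 769 CPM with ppk1. The groups overlapped almost fully, and the log2 fold change was -0.027 (SE 0.08, edgeR adjusted p 0.865). HSP90B1 (GRP94), the Hsp90 of the lumen, had 918, 925 and 1064 CPM against 1025, 966 and 1043 CPM, a change of 0.065 (SE 0.08, edgeR adjusted p 0.658). The lumenal J proteins DNAJB9, DNAJB11 and DNAJC3, all known targets of the unfolded protein response, had log2 fold changes of -0.11, 0.12 and -0.04 and edgeR adjusted p-values of 0.471, 0.345 and 0.798. Among the 13, only DNAJB12, a J protein of the membrane that acts in the removal of misfolded proteins, was higher in each pair, and only DNAJC18 was lower in each pair. When GC content and transcript length entered as offsets, DNAJB11 was called higher (0.19, edgeR adjusted p 0.0176).

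In mitochondria, 0 of 10 members were called by edgeR, where 4.04% of all tested genes were called higher and 5.04% lower. DESeq2 called none of the 10. At an unadjusted p below 0.05 in edgeR, 3 of the 10 were higher and 0 lower, against 2381 and 2269 of all 19574 tested genes. HSPE1, the lid of the chaperonin, had 150, 165 and 221 CPM in empty vector libraries B, C and D and 191, 218 and 212 CPM with ppk1. It was higher in pairs B (0.36) and C (0.39) and not in D (-0.06), since empty vector library D was the highest of the 6, and its log2 fold change of 0.23 (SE 0.08) had an edgeR adjusted p of 0.0527. HSPD1, the chaperonin itself, had 1141, 1179 and 1351 CPM against 1302, 1399 and 1357 CPM (log2 fold change 0.15, SE 0.08, edgeR adjusted p 0.248), with empty vector library D again the highest of its group. HSPD1 and HSPE1 lie head to head on opposite strands of chromosome 2 and overlap in annotated exons, so their values are not independent if the counting ignored the strand. HSPA9 (mortalin), the Hsp70 of the matrix that draws proteins in, had 490, 518 and 547 CPM against 565, 628 and 585 CPM. Its groups did not overlap (log2 fold change 0.19, SE 0.075, edgeR adjusted p 0.096). DNAJC11, of the outer membrane, was higher in each pair (0.19, edgeR adjusted p 0.0969), and DNAJA3, the J partner of HSPA9, had a change of 0.063 (edgeR adjusted p 0.649). The result for this compartment depended on settings: HSPE1, HSPA9 and HSPD1 were called higher with GC and length offsets (edgeR adjusted p 0.017, 0.0049 and 0.0344), and HSPE1 and HSPA9 without replicate D (9.1e-05 and 0.0474). HSPE1 was also called with no low-count filter (0.0407), and DNAJC11 without replicate B.

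Side by side, 32 of 40 tested cytosolic and nuclear members, 5 of 13 endoplasmic reticulum members and 9 of 10 mitochondrial members had a log2 fold change above 0, and so did 10381 of all 19574 tested genes. The median was 0.10 for the cytosol and nucleus, -0.04 for the endoplasmic reticulum and 0.14 for mitochondria, and 0.015 for all tested genes. By pair (B, C, D) the cytosolic median was 0.096, 0.16 and 0.074, the mitochondrial one 0.055, 0.26 and 0.052, and that of the endoplasmic reticulum 0.051, -0.061 and -0.091. The difference between compartments was not tested, since member genes are not replicates. As shares of all counts, the cytosolic and nuclear members took 0.781%, 0.822% and 0.895% in empty vector libraries B, C and D and 0.888%, 0.969% and 0.923% with ppk1. The share was higher with ppk1 within each pair, but empty vector library D was above ppk1 library B. The endoplasmic reticulum members took 0.250%, 0.243% and 0.267% against 0.257%, 0.222% and 0.249%, lower with ppk1 in pairs C and D. The mitochondrial members took 0.216%, 0.224% and 0.241% against 0.236%, 0.247% and 0.242%.

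Outside the named compartments, 9 of 10 members were tested and none was called by edgeR (0 higher and 2 lower at an unadjusted p below 0.05). The counts for all 19574 tested genes were 2381 higher and 2269 lower at that threshold. DNAJB13, an axonemal J protein of motile cilia and sperm, had 31 to 77 counts per library, and its groups did not overlap (1.25 to 1.46 against 0.646 to 1.14 CPM). Its log2 fold change of -0.61 (SE 0.205) had an edgeR adjusted p of 0.0511. DNAJC27, a small GTPase with a J domain, had 14.1, 13.8 and 15.2 CPM against 12.5, 12.0 and 11.2 CPM, lower in each pair (-0.27, SE 0.09, edgeR adjusted p 0.0549). Both were called lower with GC and length offsets and without replicate B, and DNAJB13 also with no low-count filter.

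Levels among members were compared per length, as TPM, the counts divided by annotated exon length and scaled to a common total, in the empty vector libraries. HSP90AB1 was the most abundant at 2240 ± 26.8 TPM, followed by HSP90AA1 at 1620 ± 212 and HSPD1 at 1123 ± 62.4 TPM (mean ± SD, n = 3). HSP90B1 (804 ± 40 TPM), HSPA5 (777 ± 75.0) and HSPA8 (650 ± 95.9) came next; HSP90B1 and HSPA5 differed by less than their SD, HSPA5 and HSPA8 by more than either SD. Of the 9 members called higher, the least abundant was DNAJB1 at 79.9 ± 3.78 TPM. Of the members called lower, HSF2 was at 127 ± 16.2 and DNAJB2 at 19.1 ± 3.28 TPM.

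Other folding genes were taken from lists of co-chaperones and folding factors outside the member rule. Of 22 tested cytosolic factors 3 were called higher (13.6%, against 4.04% of all tested genes) and none lower (5 higher and 0 lower at an unadjusted p below 0.05). Their median log2 fold change was 0.10, and 5 (22.7%, against 13.0% of all tested genes) had all ppk1 libraries above all empty vector libraries. Those called included HSPBP1, a nucleotide exchange factor of Hsp70 (0.24), and UNC45A, a myosin chaperone that binds Hsp90 (0.23), with edgeR adjusted p-values of 0.033 and 0.0439. Of 16 tested endoplasmic reticulum factors 3 were called higher (18.8%, against 4.04% of all tested genes). They were MANF (0.33), CRELD2 (0.30) and SDF2L1 (0.28), known targets of the unfolded protein response, with edgeR adjusted p-values of 0.00233, 0.00699 and 0.0111. The list had a median of 0.10, with 5 higher and 0 lower at an unadjusted p below 0.05. Other targets of that response in it were not called, such as XBP1 (-0.064), DDIT3 (0.003), PDIA6 (0.025) and ERO1A (-0.001). Also not called were CALR (0.206), HYOU1 (0.156), PDIA3 (0.135) and PDIA4 (0.108), whose ppk1 libraries all lay above all empty vector libraries. That was the case for 9 of the 16 (56.2%), against 13.0% of all tested genes, and 1 of the 16 had all ppk1 libraries below. MANF had 70.9, 70.7 and 68.5 CPM in the empty vector libraries and 85.7, 88.8 and 89.5 CPM with ppk1, and its groups did not overlap, beside HSPA5, HSP90B1 and DNAJB9, which did not pass the test. Of 13 mitochondrial factors 0 were called by edgeR, 5 were higher at an unadjusted p below 0.05 and 0 lower, and the median was 0.12. All ppk1 libraries lay above all empty vector libraries for 6 of the 13 (46.2%, against 13.0% of all tested genes) and below for 1. Over the 3 lists, the 6 calls became 0 without replicate C (4 higher at an unadjusted p below 0.05) and 1 without the block.

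**Figure D4:**
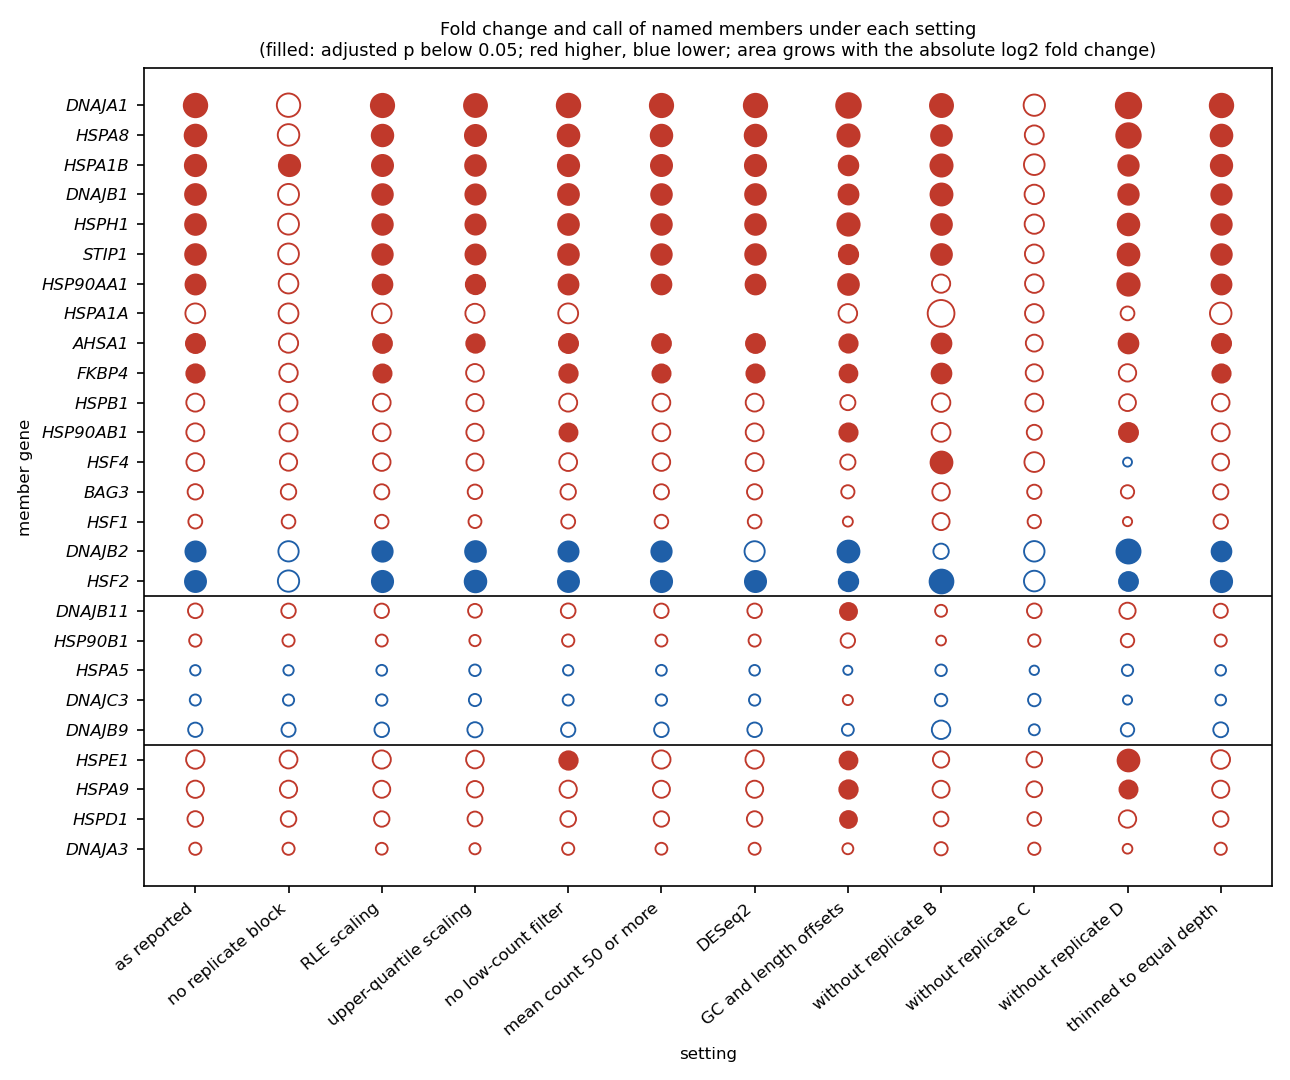
Log2 fold change (circle area) and call (filled: adjusted p below 0.05) of 26 named members, in rows, under the reported fit and 11 alternative settings, in columns; red is higher and blue lower with ppk1. The column without replicate C has no filled circle and the column without the replicate block has 1, HSPA1B, while the circles of the 9 members called higher stay red in all columns.

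The 9 members called higher were above empty vector in each pair, which nearly fixes their sign when the same 6 libraries are fitted again, so the alternatives bear on their size and call. The log2 fold changes ran from 0.18 to 0.33 without replicate C (median 0.25, edgeR adjusted p from 0.123 to 0.655, 7 of 9 at an unadjusted p below 0.05) and from 0.23 to 0.42 without the block (adjusted p from 0.0212 to 0.199, 9 of 9 unadjusted). DESeq2 with the block called all 9, between 0.23 and 0.42, and so did edgeR after the libraries were thinned to equal depth. HSP90AA1, DNAJB1, AHSA1 and FKBP4 overlap genes on the opposite strand, whose reads cannot be told apart from theirs if the counting ignored the strand. Where p-values are given, they set the difference between groups against variation between cultures of 1 cell line. That variation is taken within matched pairs only where the block was used.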

How the data were processed

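Poly(A)-selected RNA was sequenced in 6 libraries, with a directional kit per the labels' protocols. The authors deposited raw counts per Ensembl gene, whole numbers with a different total in each library. Per the submitters' processing notes bcl2fastq 2.20, Trimmomatic, STAR, HTSeq, edgeR, DESeq, Cufflinks and Cuffdiff were used; their roles, the genome build, the annotation and the strand setting of the counting are not given in the sources used here. All 6 columns matched a sample by title.

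Counts were tested with edgeR 4.0.16 (glmQLFit, glmQLFTest) in R 4.3.3 after filterByExpr (minimum count 10) and TMM scaling, fitted on the whole table and adjusted over 19574 genes. Each SE was taken as |log2 fold change|/√F. CPM uses TMM-scaled totals for members and folding genes. For the cell markers and the limit on a gene with 0 counts it uses plain library totals. The replicate letter was a block, because the design text states that libraries of a letter are matched; same-letter deviations from the group means correlated at 0.109 (B), 0.135 (C) and 0.048 (D). Log2 ratios within pairs used CPM + 0.1. Chromosome, exon length and sequence shared in stretches of 50 bases came from GENCODE release 29, promoters from RefSeq (GRCh38.p14).

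Named members are all called ones plus 24 core genes named whatever their result, 26 in all, which were followed through 11 alternatives, among them DESeq2 1.42.0 and offsets for GC content and length (known for 99.4% of tested genes). Members and lists were chosen with earlier results of these data known. Other members given with values (such as HSPA6, HSPB9, HSPA13, DNAJB12, DNAJB13, DNAJC11 and DNAJC27) were picked after their values were seen. The values of 1 called folding gene outside the members are not reported here. The fit was also run on simulated data without a replicate effect, which cannot check the block. Its outcome is not reported here.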

Additional observations from a re-analysis of the deposited data

How the results depend on the processing

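Of 284 values of the 26 named members under 11 alternatives, 245 kept direction and call, 26 kept direction and lost the call, 11 gained it and 2 changed sign (DNAJC3 to 0.021 with GC and length offsets, HSF4 to -0.002 without replicate D, against 0.355 without replicate B). Without the replicate block, in place of 9 members called higher and 2 lower there were 1 and 0, all cytosolic, and 1 further folding gene was called in place of 6. Over all 19574 tested genes, 89 were then called higher and 381 lower, against 791 and 986 in the reported fit. With GC and length offsets 15 members were called higher and 4 lower, 1 of the 15 in the endoplasmic reticulum and 3 in mitochondria, and 13 further folding genes were called higher and 1 lower. Calls over all 19574 tested genes also rose with these offsets, to 1550 higher and 1363 lower. DESeq2 called 1 member lower, a cytosolic one. With no low-count filter 11 members were called higher, 1 of them mitochondrial, and 3 lower. Leaving out 1 matched pair at a time, members called higher ran from 0 (without C) to 11 (without D), members called lower from 0 (without C) to 4 (without B), cytosolic rises from 0 to 9 and falls from 0 to 2, endoplasmic reticulum falls from 0 to 1, mitochondrial rises from 0 to 2 and further folding genes called higher from 0 (without C) to 9 (without B). Over all tested genes, 1263 were called higher and 1172 lower of 19422 without B. These counts were 82 and 324 of 19751 without C, and 671 and 1132 of 19897 without D. The cause was not tested. RLE and upper-quartile scaling, the stricter filter and thinning to equal depth, which was chosen after the data were seen, kept the number of members called higher between 8 and 9. The values of HSPA6 and HSPA1L rest on 7 to 27 counts per library, and the 9 untested members had at most 7.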
